A study of Mus musculus with 6 samples.

Results

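T cell receptor genes lie in 4 loci, and each locus is an array of variable (V), joining (J), sometimes diversity (D), and constant (C) gene segments. The members described here were all gene segments of Tra, Trb, Trg and Trd, the loci of the receptor's alpha, beta, gamma and delta chains, that NCBI types as V, D, J or C segments. There were 230 of them among the 40808 gene IDs counted. Tra had 166 members (114 V, 51 J, 1 C), Trb had 39 (22 V, 2 D, 13 J, 2 C), Trg had 15 (7 V, 4 J, 4 C) and Trd had 10 (5 V, 2 D, 2 J, 1 C). A further 41 symbols matched the same name pattern and were left out, 40 of them V or J pseudogenes and 1 a protein-coding gene, Tradd, that is no receptor segment. At least 1 count was found in some library for 122 members, and 108 members had 0 counts in all of them.

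The counts came from mRNA 3′ ends sequenced from mouse spleen. Leukaemia cells from the spleens of mice given a bone marrow transplant were the source of the RNA, per the labels' protocols. There were 3 libraries labelled as not receiving Dox (replicates 4, 5 and 6) and 3 labelled as receiving it (replicates 10, 11 and 12). The labels give no dose, duration, age, strain, transgene or leukaemia line, and do not say which gene Dox acts on or whether a library holds 1 animal, so what limits the groups as models is not known from them. The study's title sets the comparison within the control of NOTCH receptors. Nothing in the labels says that the libraries of a group came from separate animals, so p-values measure the spread between these libraries, which may be technical.

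A T cell makes its receptor by cutting and joining 1 V segment to a J segment, with a D segment between them in Trb and Trd, using the RAG1 and RAG2 recombinase. The joined V region is transcribed together with a downstream C region and the segments are brought together by splicing. All descendants of a cell inherit its joins, so V and J usage is a standard readout of clonality. Because mRNA is primed here on the poly(A) tail, which follows the C region, reads from a spliced receptor mRNA are expected mostly in the C genes, and V, D and J counts do not measure the repertoire directly.

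Of the C genes, Trbc1 and Trbc2 are near-identical copies, so it matters where they can be told apart. They were 95.6% identical over 521 coding bases. Of the 23 differing bases, 1 lay in the 375 bases of the first exon and 22 in the 146 coding bases of the later exons, the part nearest to the poly(A) tail. Those 146 bases are printed for each gene, 5′ to 3′ on the plus strand with introns removed, and capitals mark the bases that differ between the copies.
Trbc1 (chr6:41539114-41539665): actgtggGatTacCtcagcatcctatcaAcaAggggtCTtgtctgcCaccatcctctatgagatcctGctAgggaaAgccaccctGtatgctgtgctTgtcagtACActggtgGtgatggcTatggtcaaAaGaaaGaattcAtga
Trbc2 (chr6:41547610-41548181): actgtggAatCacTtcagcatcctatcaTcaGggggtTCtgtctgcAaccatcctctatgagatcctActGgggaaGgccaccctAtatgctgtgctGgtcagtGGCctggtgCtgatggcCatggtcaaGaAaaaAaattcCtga
Sequences are from GENCODE M21 (GRCm38). The differing bases are spread along the stretch, so a read covering much of it meets several of them. In the RefSeq annotation both gene models end at the stop codon, 216 bases short of the GENCODE transcript end for Trbc1 and 171 bases short for Trbc2, while the Trac model ends 8 bases short. Which annotation was counted is not given in the sources used here, so how many reads Trac and the Trbc genes gained or lost by it was not tested. Shares of Tra and Trb are therefore compared between the groups, and the order of the loci within a library is not read as an order of mRNA levels.

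V segments pose the same question of copies. The Tra V array contains duplicated stretches, and Trav6-6 and Trav6d-6 had the same sequence throughout. The last 120 coding bases of both are printed to show the identity, all in lower case since no base differs. Trgv2, the V segment with the most counts, follows.
Trav6-6 (chr14:53517247-53517366, plus strand): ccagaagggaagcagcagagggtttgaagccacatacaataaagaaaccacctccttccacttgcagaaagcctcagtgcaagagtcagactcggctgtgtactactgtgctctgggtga
Trav6d-6 (chr14:52822240-52822359, plus strand): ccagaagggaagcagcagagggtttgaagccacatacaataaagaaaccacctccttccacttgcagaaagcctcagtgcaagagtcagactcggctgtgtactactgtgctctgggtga
Trgv2 (chr13:19336573-19336692, minus strand): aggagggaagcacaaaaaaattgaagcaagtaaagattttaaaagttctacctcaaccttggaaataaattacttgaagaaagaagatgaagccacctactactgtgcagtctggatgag
A GENCODE sequence was matched by symbol for 140 of 148 V members, and 15 groups of identical sequence held 30 of them. In all 8 of these groups that had a count, the copies differed by at most 1 count in every library. The copies' counts are therefore not independent of each other, and such pairs are uncertain as single genes.

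Total counts were 5541486 to 7729988 in the libraries without Dox and 6498193 to 8725767 with Dox, and a count of 3, taken as the detection floor, was worth 0.31 to 0.61 CPM (TMM-normalized, a scale common to all libraries). Other features of the libraries also separated the groups. The haemoglobin genes held 8.61% to 9.04% of counts without Dox and 14.1% to 15.9% with Dox. Counts of Y-linked genes were 545 to 801 without Dox and 0 in each library with Dox, and Xist had 193 to 324 and 3347 to 5669 counts, so Dox and the sex of the cells cannot be told apart. In these bulk samples, fewer cells of a type and less RNA per cell cannot be told apart either.

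Receptor counts were mainly C region counts, and both their number and their make-up differed between the groups. The 230 members together received 9398, 6648 and 8457 counts in libraries lacking Dox and 807, 1169 and 857 with Dox. All 3 libraries with Dox were below all 3 without it. The receptor's share of a library was 0.125% ± 0.0070 (SD of n = 3) without Dox and 0.0126% ± 0.00067 (SD of n = 3) with Dox, a ratio of 9.87 (two-sided exact permutation p = 0.1). With 3 libraries against 3, 0.1 is the smallest p this test can give, and it holds for each such p of 0.1. Of 56 measures per library compared in this way, 41 had groups that did not overlap, and the smallest Benjamini-Hochberg adjusted p was 0.137, so none passed 0.05.

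The ratio differed from locus to locus. Trg held 0.0122% ± 0.0018 (SD of n = 3) of library counts without Dox and 0.00056% ± 0.00079 (SD of n = 3) with Dox, a ratio of 21.7. That ratio rested on single libraries, since Trg with Dox was at 0.00146%, 0% and 0.000226%. It was 108.2 without Dox replicate 10, 14.5 without Dox replicate 11 and 16.7 without Dox replicate 12, so its place above or below the ratio of Trb is not settled. Trb held 0.0834% ± 0.0043 (SD of n = 3) and 0.00457% ± 0.00082 (SD of n = 3), a ratio of 18.3. For Tra the levels were 0.0283% ± 0.0013 (SD of n = 3) and 0.00708% ± 0.0012 (SD of n = 3), a ratio of 4.0. In these 3 loci the groups did not overlap (two-sided exact permutation p = 0.1 each). Trd, whose counts were few, held 0.00085% ± 0.00023 (SD of n = 3) and 0.00044% ± 0.00027 (SD of n = 3), with overlapping groups (two-sided exact permutation p = 0.2). The ratios of Trb and Tra were 17.1 to 20.3 and 3.77 to 4.42 when 1 library was left out.

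The locus make-up of the receptor counts differed between the groups. Trb made up 68.0%, 66.3% and 66.3% of receptor counts without Dox and 31.7%, 31.8% and 45.4% with Dox. Tra made up 22.1%, 23.9% and 22.2% in the first group and 53.0%, 62.9% and 51.3% in the second. Neither locus overlapped between the groups. Trg made up 9.41%, 9.16% and 10.7% without Dox, and 11.8%, 0% and 1.87% with Dox, where 1 library was above and 2 were below the other group (two-sided exact permutation p = 0.4). Among C region counts alone, Trb held 75.6% ± 0.47 (SD of n = 3) without Dox and 52.8% ± 11.5 (SD of n = 3) with Dox (two-sided exact permutation p = 0.1). Tra held 21.5% ± 0.81 and 40.4% ± 7.4 (mean ± SD of n = 3), again without overlap.

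**Figure D1:**
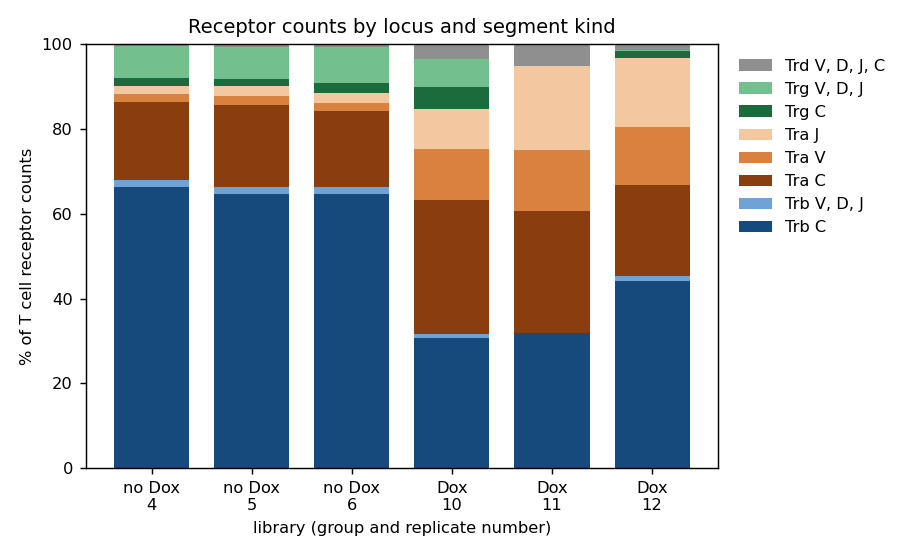
Receptor counts of each library (x axis, group and replicate number) split by locus and segment kind, as a percentage of all receptor counts (y axis, 0 to 100%). The Trb C block is smaller with Dox than without, and Tra as a whole is larger, at 51.3% to 62.9% against 22.1% to 23.9%.

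By kind of segment, C genes held 87.2%, 86.1% and 85.6% of receptor counts without Dox and 70.8%, 64.2% and 67.2% with Dox. The means were 86.3% ± 0.83 and 67.4% ± 3.3 (mean ± SD of n = 3; two-sided exact permutation p = 0.1). J segments held 2.58% ± 0.18 without Dox and 15.1% ± 5.2 with Dox (mean ± SD of n = 3), and V segments 10.9% ± 0.72 and 17.5% ± 2.0 (mean ± SD of n = 3), neither overlapping. As a share of the library, C counts were 12.7-fold, V counts 6.15-fold and J counts 1.67-fold higher without Dox. Within Tra, the V and J arrays had lower ratios than the C gene. Tra V had 169, 143 and 165 counts without Dox and 98, 169 and 117 with Dox, a ratio of library shares of 1.44. These V totals count each member, also where counts of members agreed within 1 in every library. With such members counted once, Tra V had 115, 92 and 99 counts without Dox and 38, 105 and 95 with Dox. V shares and ratios were not recomputed that way, so how far they rest on copies was not tested. Tra J had 175, 161 and 198 counts without Dox and 76, 230 and 140 with Dox, a ratio of 1.43 with overlapping groups (two-sided exact permutation p = 0.2). Tra C, the single gene Trac, had a ratio of 6.70. Every J count in the libraries with Dox was a Tra J count, since Trb J, Trg J and Trd J had none there.

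In the test across all genes (edgeR's quasi-likelihood test, Benjamini-Hochberg adjusted p under 0.05), 20 of the 230 members had enough counts to be tested. With Dox, 12 of the 20 fell and 0 rose, beside 22.1% of the 14110 genes tested that fell and 23.6% that rose. Of the 2 tested members with a fold change above 0, 0 had an unadjusted p under 0.05, and DESeq2 and limma-voom also called 0 members higher. These 2, Trav6-5 and Trav6n-5, had equal counts in every library and are in effect 1 measurement. So are Trav6-6 and Trav6d-6, both among the 12 that fell. Each pair still enters the numbers and the median given here as 2 members. The 20 are not a sample of all members. Of these, 13 reached the filter's level of 1.47 CPM in all 3 libraries without Dox and not in all with Dox, 5 reached it in all libraries of both groups, and 2 in all libraries of neither group, so most passed through the group in which they were high. The other 210 members, 102 of which had a count and none more than 41 in total, held 2.09% to 2.68% of receptor counts without Dox and 8.55% to 13.6% with Dox. The median log2 fold change (Dox minus no Dox) of the 20 was -3.24, or -3.04 with the 5 members at or under the floor in every Dox library set at their bound, and that of all tested genes was 0.07. By kind, the members that fell were Trac, both Trbc genes, 2 of 3 tested Trg C genes, both tested Trg V segments, both tested Trb V segments, the tested Trb D segment and 2 of 4 tested Tra V segments. The tested Trd C gene and the 4 tested Tra J segments were not called.

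The C genes of the alpha beta receptor all fell. Trbc1 (chr6:41538219-41539665), the first of the beta chain's C genes, had 4912, 3440 and 4467 counts without Dox and 81, 120 and 172 with Dox. Its level was 729 ± 30 CPM (SD of n = 3) without Dox and 15.3 ± 6.4 CPM (SD of n = 3) with Dox, a log2 fold change of -5.57 ± 0.29 (SE; edgeR adjusted p = 1.56e-06). Trbc2 (chr6:41546730-41548181), the C gene of the second D, J and C cluster, had 1326, 861 and 1009 counts without Dox and 166, 252 and 206 with Dox. It was at 181 ± 15 CPM and 25.2 ± 2.4 CPM (mean ± SD of n = 3), a log2 fold change of -2.84 ± 0.18 (SE; edgeR adjusted p = 3.09e-06). Trac (chr14:54220521-54224198), the C gene of the alpha chain, had 1734, 1282 and 1512 counts without Dox and 254, 336 and 183 with Dox. It was at 258 ± 1.8 CPM and 31.1 ± 6.0 CPM (mean ± SD of n = 3), a log2 fold change of -3.05 ± 0.19 (SE; edgeR adjusted p = 3.23e-06). In none of the 3 genes did the groups overlap, which was also so for 59.6% of all tested genes. Coordinates of genes are from RefSeq (GRCm38.p6).

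Of the gamma chain's 4 C genes, Trgc1 and Trgc2 fell, Trgc4 did not pass the test and Trgc3 was not tested, all from few counts. Trgc1 (chr13:19214103-19216618) had 56, 36 and 63 counts without Dox and 0 in each library with Dox. From 8.78 ± 1.7 CPM (SD of n = 3) it was at least 23.7-fold lower with Dox, taking a floor of 3 counts in each library (edgeR adjusted p = 0.000401). Trgc2 (chr13:19305060-19307551) had 97, 58 and 90 counts without Dox and 15, 0 and 14 with Dox. Its level went from 13.8 ± 1.8 to 1.30 ± 1.1 CPM (mean ± SD of n = 3), with a log2 fold change of -3.44 ± 0.89 (SE; edgeR adjusted p = 0.0106), and -2.84 without Dox replicate 11. Trgc4 (chr13:19344558-19352343) had 24, 9 and 41 counts without Dox and 27, 0 and 0 with Dox. All 27 counts with Dox were in replicate 10 and the groups overlapped. Its log2 fold change was -1.76 ± 1.5 (SE; edgeR adjusted p = 0.368), and leaving out Dox replicate 10 gave an edgeR adjusted p of 0.00931. Trgc3 (chr13:19260885-19263397) had 9, 3 and 4 counts without Dox and 0 with Dox, too few for the test.

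Trdc (chr14:54142851-54146108), the delta chain's C gene, did not pass the test. It had 40, 34 and 55 counts without Dox and 28, 42 and 1 with Dox. Levels were 7.39 ± 1.7 CPM in the first group and 2.76 ± 2.3 CPM in the second (mean ± SD of n = 3) and did not overlap. Dox replicate 12 had a single count of it, the fewest of the 6. The log2 fold change was -1.41 ± 0.89 (SE; edgeR adjusted p = 0.223).

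**Figure D2:**
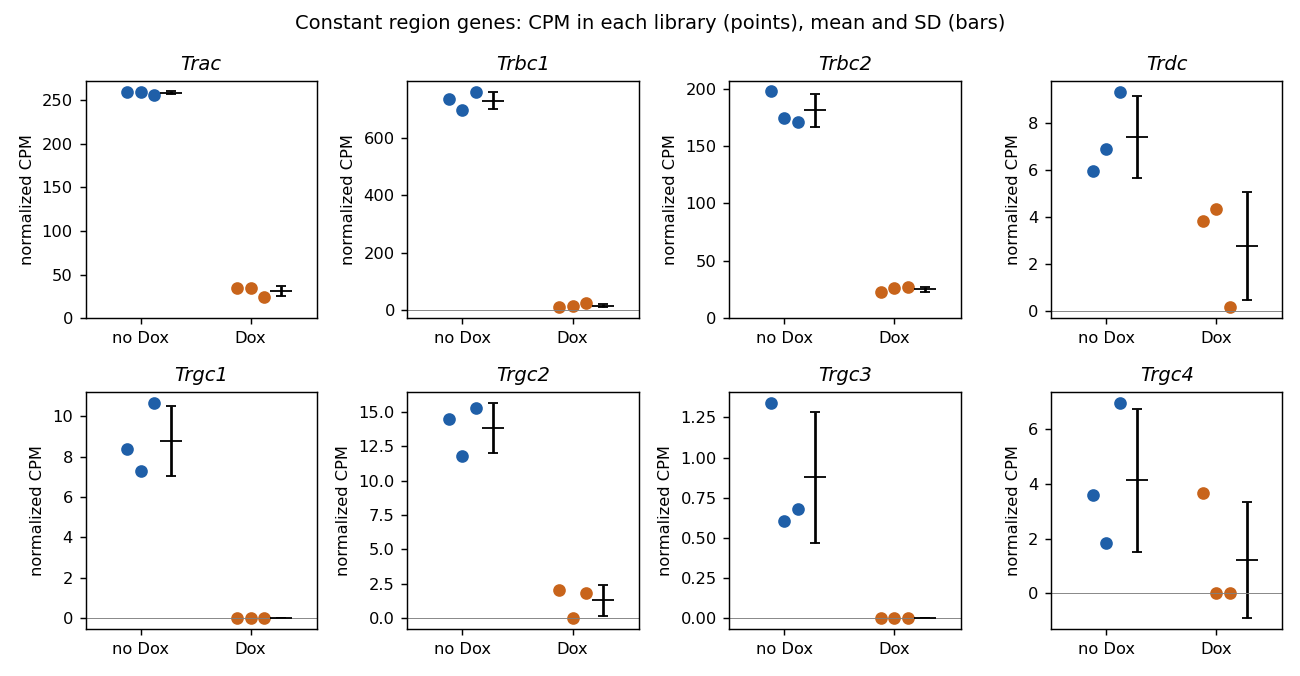
Level of the 8 C region genes in each library (points; y axis, TMM-normalized CPM on a separate linear scale for each gene), with the group mean and SD (bars) for libraries without and with Dox (x axis, n = 3 each). Trbc1 shows the widest gap of the alpha beta C genes, 729 against 15.3 CPM on average, while Trgc4 overlaps between the groups.

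The balance of Trbc1 and Trbc2 turned over between the groups. Trb carries 2 clusters of D, J and C segments, and a V segment joined into the first cluster is spliced to Trbc1 while a join into the second uses Trbc2. Without Dox, Trbc1 made up 78.7% (95% Wilson interval 77.7 to 79.7), 80.0% (78.8 to 81.2) and 81.6% (80.5 to 82.6) of Trbc counts. With Dox it made up 32.8% (27.2 to 38.9), 32.3% (27.7 to 37.2) and 45.5% (40.6 to 50.5). The intervals cover counting error only, since reads without molecular identifiers are not independent molecules. Of the 2 Trbc genes, Trbc1 thus had more counts in each library without Dox and Trbc2 in each library with Dox, although the interval of Dox replicate 12 includes an equal share. The means were 80.1% ± 1.4 and 36.9% ± 7.5 (mean ± SD of n = 3; two-sided exact permutation p = 0.1). Expressed as a ratio, there were 4.04 ± 0.36 Trbc1 counts per Trbc2 count without Dox and 0.600 ± 0.20 with Dox (mean ± SD of n = 3). The spread between the libraries without Dox was 1.4 percentage points, against 7.5 with Dox.

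**Figure D3:**
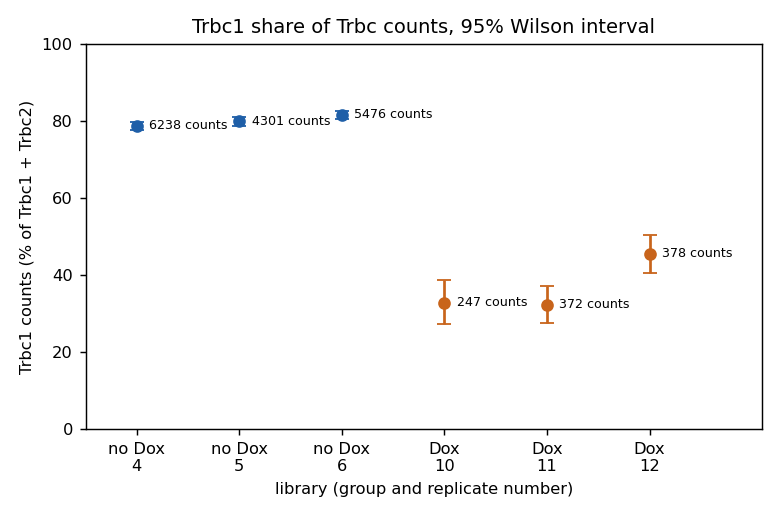
Trbc1 counts as a percentage of Trbc1 plus Trbc2 counts (y axis) in each library (x axis, group and replicate number), with the 95% Wilson interval and the number of Trbc counts beside each point. The 3 libraries without Dox lie between 78.7% and 81.6%, and the 3 with Dox between 32.3% and 45.5%.

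The D and J segments of Trb were seen only in libraries without Dox. The 7 Trbj1 segments of the first cluster had 37, 17 and 23 counts there, and the 6 Trbj2 segments of the second had 9, 1 and 5. The first cluster's J segments thus had 77 counts and the second's 15, while the D segments went the other way, with 8 counts for Trbd1 and 54 for Trbd2. With Dox, all 15 D and J segments of Trb had 0 counts in each library, where Trbc genes had 247, 372 and 378. Trbd2, a D segment of the second cluster, had 24, 12 and 18 counts without Dox and was at least 8.15-fold lower with Dox against a floor of 3 counts in each library (edgeR adjusted p = 0.00434). Trbj1-1 had 20, 14 and 7 counts without Dox, at least 6.30-fold above that floor, and was not tested. Trbj1-1 led the Trb J segments in replicates 4 and 5, with 20 of 46 and 14 of 18 counts. Trbj1-2 led in replicate 6 with 11 of 28, after 12 counts in replicate 4 and 1 in replicate 5.

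A single V segment dominated Trg in the libraries without Dox. Trgv2 (chr13:19336573-19337026) had 556, 397 and 598 counts without Dox and 20, 0 and 0 with Dox. It made up 79.8% (95% Wilson interval 76.6 to 82.6), 79.1% (75.3 to 82.4) and 84.2% (81.4 to 86.7) of Trg V counts there, a mean of 81.0% ± 2.8 (SD of n = 3). Trgv1 (chr13:19340016-19340454), its neighbour in the locus, had 133, 96 and 112 counts without Dox and 33, 0 and 2 with Dox. In Dox replicate 10, the only library with Dox that had 20 or more Trg V counts, Trgv1 led instead, with 62.3% of 53 (48.8 to 74.1). Both V segments passed the test. Trgv2 went from 88.3 ± 11.4 to 0.907 ± 1.6 CPM (mean ± SD of n = 3), a log2 fold change of -6.69 ± 0.84 (SE; edgeR adjusted p = 0.000158). All counts of Trgv2 with Dox were in replicate 10, and without that library the fitted log2 fold change was -12.28, which is no measured size or bound because the remaining Dox libraries had 0. It was -6.04 without Dox replicate 11. Trgv1 went from 19.4 ± 0.43 to 1.59 ± 2.5 CPM (mean ± SD of n = 3), a log2 fold change of -3.65 ± 1.03 (SE; edgeR adjusted p = 0.0159). The call of Trgv1 was lost without no Dox replicate 4 (edgeR adjusted p = 0.0547) and without no Dox replicate 6 (0.0541). It was also lost with DESeq2 (adjusted p = 0.0714), and without Dox replicate 10 the fitted log2 fold change was -7.19, against 0 and 2 remaining counts. It was -3.05 without Dox replicate 11.

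In the libraries without Dox, Trg was the only locus with more V than C counts. The Trg V segments had 697, 502 and 710 counts without Dox against 186, 106 and 198 for the Trg C genes. In Trb there were 75, 73 and 83 V counts against 6238, 4301 and 5476 C counts. In Tra there were 169, 143 and 165 V counts against 1734, 1282 and 1512 C counts, and in Trd 6, 14 and 13 V counts against 40, 34 and 55. With Dox the orders were not fixed. Trg had 53 V and 42 C counts in replicate 10, none of any kind in replicate 11, and 2 V and 14 C counts in replicate 12, where Trd had 11 V counts and 1 C count. Whether the Trgv2 counts came from spliced receptor mRNA was not tested.

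In Trb, Trbv1 and Trbv31 together held most V counts without Dox. Trbv1 (chr6:40891296-40891885), at the 5′ end of the locus, had 46, 40 and 34 counts without Dox and 0, 0 and 11 with Dox. It made up 61.3% (95% Wilson interval 50.02 to 71.5), 54.8% (43.4 to 65.7) and 41.0% (31.0 to 51.7) of Trb V counts without Dox, a mean of 52.4% ± 10.4 (SD of n = 3). Its log2 fold change was -3.82 ± 1.29 (SE; edgeR adjusted p = 0.0341). That call rested on few libraries. It was lost without no Dox replicate 4, 5 or 6 (edgeR adjusted p = 0.106, 0.112 and 0.0822) and without Dox replicate 10 (0.0596), and without Dox replicate 12 the fitted log2 fold change was -8.59, against remaining counts of 0. It was -3.24 without Dox replicate 11. Trbv31 (chr6:41557693-41558371), which lies downstream of the C genes in inverted orientation, had 15, 26 and 33 counts without Dox and 0 in each library with Dox (edgeR adjusted p = 0.00292). In replicate 6 it was within 1 count of Trbv1, so no single V segment dominated Trb in that library. Trbv31 was named after its values were seen. With Dox, Trbv20 had 9 counts in replicate 10, all the Trb V counts of that library, and Trbv1 had all 11 of replicate 12.

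**Figure D4:**
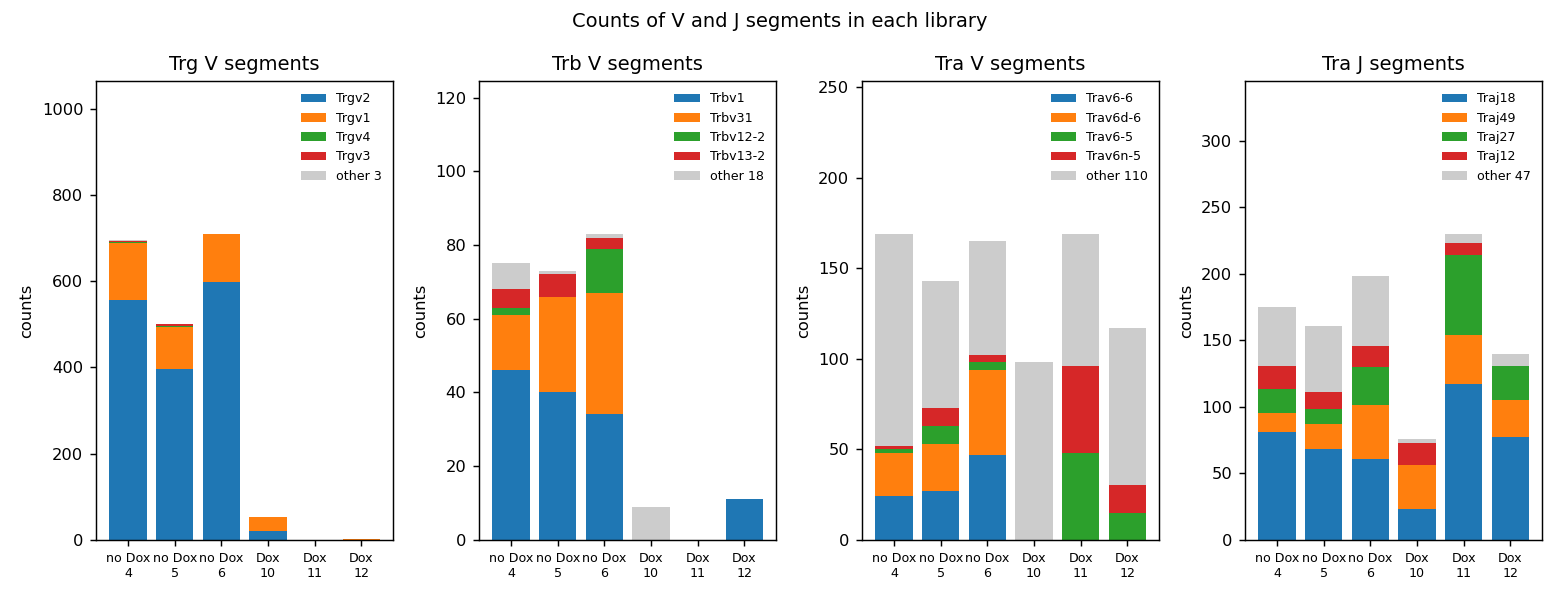
Counts (y axis, linear, separate scale for each panel) of Trg V, Trb V, Tra V and Tra J segments in each library (x axis), stacked by the 4 segments with the most counts over the 6 libraries and all others together. Trgv2 fills most of the Trg V bars without Dox, and Traj18 is present in all 6 libraries.

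In Tra, no V segment held more than 28.5% of the V counts as listed. Trav6-6 had the highest count in all 3 libraries without Dox, tied with its copy Trav6d-6 in replicates 4 and 6, with 14.2%, 18.9% and 28.5% of Tra V counts. With Dox the highest count was held by other V segments, which were not the same in the 3 libraries. In replicate 10, 7 segments tied at 12 counts, or 12.2% each, namely Trav13-3, 4 members named Trav13d or Trav13n, Trav14d-1 and Trav14n-1, so none of them led. In replicate 11 Trav6-5 and Trav6n-5, whose counts were equal in every library, had 28.4% each. In replicate 12 Trav13-4-dv7 had 23.9%. The leading share was 20.5% ± 7.3 without Dox and 21.5% ± 8.3 with Dox (mean ± SD of n = 3; two-sided exact permutation p = 1). When V members whose counts agreed within 1 in every library were counted once, an alternative chosen after seeing the data, the leading shares were 20.9%, 29.3% and 47.5% in the first group and 31.6%, 45.7% and 29.5% with Dox. The means were then 32.6% ± 13.6 and 35.6% ± 8.8 (mean ± SD of n = 3; two-sided exact permutation p = 0.7), so the groups overlapped either way.

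Trav6-6 had 24, 27 and 47 counts without Dox and 0 in each library with Dox, and its identical copy Trav6d-6 had 24, 26 and 47 and again 0. Trav6-6 was at least 15.3-fold lower with Dox (edgeR adjusted p = 0.00161) and Trav6d-6 at least 15.1-fold (0.00164), with a floor of 3 counts in each library. These are in effect 1 measurement. Trav6-5 and Trav6n-5, not found in a group of identical sequence, each had 2, 10 and 4 counts without Dox and 0, 48 and 15 with Dox. The groups overlapped, and the log2 fold change was 1.23 ± 1.38 (SE; edgeR adjusted p = 0.498). Without Dox replicate 11, which held most of these counts, it was -0.015. Trav13-3 had 12 counts in Dox replicate 10 and 1 in replicate 11, Trav13-4-dv7 had 28 in Dox replicate 12 and 1 in replicate 11, and both had 0 in all libraries without Dox. Neither had enough counts for the test.

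None of the 4 tested J segments of Tra was called. A difference between their changes and those of the C genes was not tested. Traj18 (chr14:54200777-54200842), the J segment that invariant natural killer T cells use, had 81, 68 and 61 counts without Dox and 23, 117 and 77 with Dox. At 12.1 ± 1.7 and 8.44 ± 4.7 CPM (mean ± SD of n = 3) the groups overlapped, with a log2 fold change of -0.51 ± 0.49 (SE; edgeR adjusted p = 0.429). Traj49 (chr14:54168686-54168744) had 14, 19 and 40 counts without Dox and 33, 37 and 28 with Dox, a log2 fold change of -0.08 ± 0.66 (SE; edgeR adjusted p = 0.928). Traj27 had 18, 11 and 29 counts without Dox and 0, 60 and 26 with Dox, a log2 fold change of -0.03 ± 1.16 (SE; edgeR adjusted p = 0.987). Traj12, named after its values were seen, had 18, 13 and 16 counts without Dox and 17, 9 and 0 with Dox. Its CPM did not overlap between the groups, and its log2 fold change was -1.30 ± 1.18 (SE; edgeR adjusted p = 0.398). The standard errors of these 4 leave room for changes in either direction. Traj18 led the Tra J counts with 46.3%, 42.2% and 30.8% without Dox and with 50.9% and 55.0% in Dox replicates 11 and 12, while Traj49 led in Dox replicate 10 with 43.4%. Traj18 and Traj49 were the only V, D or J segments with a count in all 6 libraries. Trav11, the V segment that pairs with Traj18 in invariant natural killer T cells, had 0, 1 and 0 counts without Dox and 0, 0 and 7 with Dox, and it was looked up after the other values were seen.

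In Trd, the same 2 segments held all V counts without Dox, and other segments held them with Dox. Trdv1 had 1, 10 and 9 counts and Trdv2-2 had 5, 4 and 4 without Dox, and both had 0 with Dox. With Dox, Trdv2-1 had 20 counts in replicate 11, all the Trd V counts of that library, and Trdv4 had all 11 of replicate 12. Dox replicate 10 had none. These numbers are too small for a test.

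Across all loci, segments were shared between the libraries without Dox more than between those with Dox, at unequal depth. Of the 222 V, D and J members, 29 had a count in all 3 libraries without Dox, out of 100 with a count in some library of that group. With Dox, 2 had a count in all 3 libraries, out of 39 with a count in some, and 28 of the 39 had one in a single library. There were 41 segments with a count in a single library without Dox, and 14 with counts in Dox libraries only. V, D and J segments with a count numbered 81, 61 and 46 without Dox and 16, 17 and 19 with Dox.

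The median number of counts per segment was higher with Dox, and the mean was not. Among V, D and J segments with a count, the median number of counts was 2, 3 and 5.5 in the first group and 12, 16 and 11 in the Dox group. Segments with 1 to 3 counts made up 61.7%, 50.8% and 30.4% of them without Dox and 6.25%, 23.5% and 15.8% with Dox. The mean was 14.8, 15.2 and 26.4 counts without Dox and 14.8, 24.6 and 14.8 with Dox, which overlapped. The highest count of a segment was 556, 397 and 598 in the first group and 33, 117 and 77 in the second. Duplicate reads of single molecules cannot be removed from a count table, and their part in these counts was not tested. To compare numbers of V segments at equal depth, each library's V counts were rarefied to 141. The expected number of V segments was then 21.1, 20.3 and 15.3 without Dox and 12, 11 and 15 with Dox, or 18.9 ± 3.1 and 12.7 ± 2.1 (mean ± SD of n = 3; two-sided exact permutation p = 0.1). When near-equal copies were counted once the difference was -4.19 segments and the groups overlapped (two-sided exact permutation p = 0.2).

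The receptor chains reach the cell surface only with the CD3 proteins, and mRNA counts of the CD3 genes fell alongside those of the C genes. Cd3d had 3169, 2349 and 2764 counts without Dox and 121, 171 and 108 with Dox, a log2 fold change of -4.87 ± 0.18 (SE; edgeR adjusted p = 5.37e-07). Cd3g had 1139, 734 and 916 counts against 66, 126 and 75, a log2 fold change of -3.89 ± 0.21 (SE; adjusted p = 1.87e-06, edgeR). Cd3e had 1502, 924 and 1034 counts against 163, 91 and 188, a log2 fold change of -3.39 ± 0.33 (SE; adjusted p = 3.53e-05, edgeR). Cd247, the zeta chain, had 668, 532 and 803 counts against 153, 178 and 77, a log2 fold change of -2.80 ± 0.28 (SE; adjusted p = 4.21e-05, edgeR). In all 4 the groups did not overlap, beside 59.6% of all tested genes.

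Relative to these 4 genes, total C region counts were alike in both groups while the single C genes were not. There were 1.27, 1.26 and 1.31 C region counts per CD3 count without Dox and 1.14, 1.33 and 1.29 with Dox, or 1.28 ± 0.029 and 1.25 ± 0.10 (mean ± SD of n = 3; two-sided exact permutation p = 0.9). Leaving out Cd247 gave 0.247 more C counts per CD3 count with Dox than without (two-sided exact permutation p = 0.1), so the closeness depends on which CD3 genes are summed. Per CD3 count, Trbc1 was at 0.775 ± 0.030 without Dox and 0.252 ± 0.12 with Dox. Trbc2 was at 0.192 ± 0.011 and 0.412 ± 0.071, and Trac at 0.275 ± 0.0074 and 0.502 ± 0.093 (mean ± SD of n = 3; two-sided exact permutation p = 0.1 for each of the 3). These directions hold for the sum of the CD3 genes and not for each of them. Against single CD3 genes, Trbc1 was lower with Dox, without overlap, for Cd3e, Cd3g and Cd247 and overlapped for Cd3d. Trbc2 was higher for Cd3d, Cd3e and Cd3g and overlapped for Cd247. Trac was higher for Cd3d and Cd3g and overlapped for Cd3e and Cd247, with 2.60, 2.41 and 1.88 Trac counts per Cd247 count without Dox and 1.66, 1.89 and 2.38 with Dox.

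Genes that build the receptor in developing T cells fell as well. Ptcra, the surrogate alpha chain of the pre-T cell receptor, had 210, 114 and 166 counts without Dox and 8, 0 and 0 with Dox, a log2 fold change of -6.29 ± 0.86 (SE; edgeR adjusted p = 0.000272). All 8 counts with Dox were in replicate 10, and without it the fitted log2 fold change was -10.60, against remaining counts of 0. It was -5.65 without Dox replicate 11. Dntt, the polymerase that adds untemplated bases at the joins, had 911, 658 and 969 counts without Dox and 7, 0 and 0 with Dox, a log2 fold change of -8.89 ± 0.62 (SE; edgeR adjusted p = 4.86e-06). All 7 counts of Dntt with Dox were in replicate 10, and the fitted log2 fold change was -12.99 without it, against remaining counts of 0, and -8.23 without Dox replicate 11. Rag1 had 1307, 859 and 1023 counts against 9, 72 and 42, a log2 fold change of -5.23 ± 0.46 (SE; adjusted p = 1.85e-05, edgeR). Rag2 had 23, 16 and 17 counts against 0, 0 and 5, a log2 fold change of -3.80 ± 1.36 (SE; adjusted p = 0.0432, edgeR), and that call was lost when any library other than Dox replicate 12 was left out, at adjusted p-values of 0.0727 to 0.179. The call of Rag2 was also lost when only library size was scaled (edgeR adjusted p = 0.0556) and with no low-count filter (0.0617). Without Dox replicate 12 the fitted log2 fold change of Rag2 was -7.48, again against counts of 0.

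The coreceptors also fell. Cd8a had 475, 346 and 473 counts without Dox and 50, 27 and 52 with Dox, a log2 fold change of -3.76 ± 0.34 (SE; edgeR adjusted p = 2.18e-05). Cd8b1 had 623, 425 and 391 counts against 46, 144 and 36, a log2 fold change of -3.23 ± 0.40 (SE; adjusted p = 0.000142, edgeR), and -3.91 without Dox replicate 11, which held 144 of its 226 counts with Dox. Cd4 had 188, 131 and 159 counts against 61, 102 and 69, a log2 fold change of -1.54 ± 0.27 (SE; adjusted p = 0.00128, edgeR). All 11 genes of this list of CD3, pre-receptor, recombination and coreceptor genes thus fell, with the limits given for Rag2. Their median log2 fold change was -3.80, beside 22.1% of all tested genes that fell and a median of 0.07 over them. The list was chosen with earlier results of these data known, so the comparison describes it and tests nothing.

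**Figure D5:**
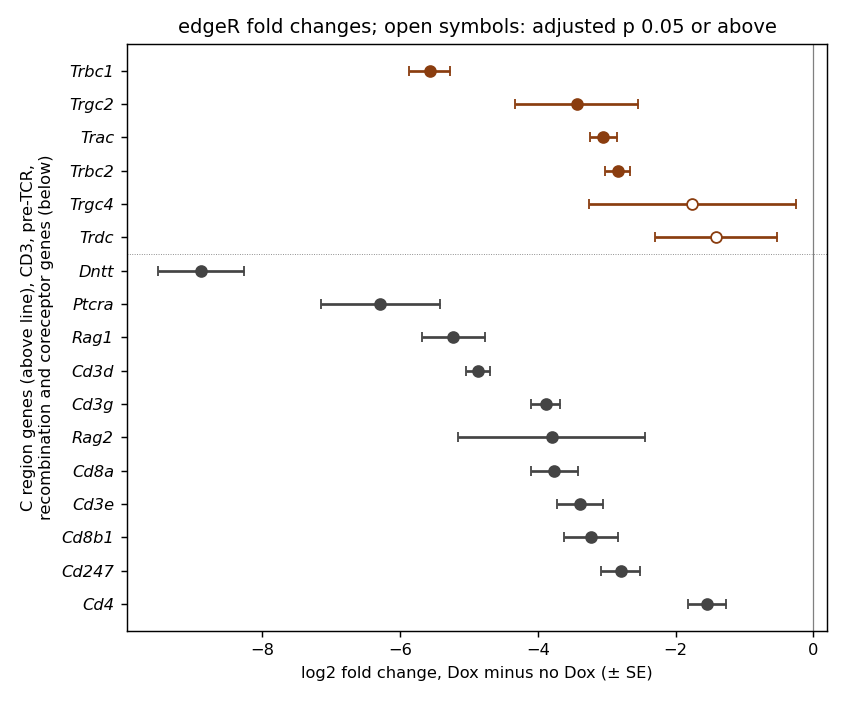
Log2 fold change (x axis, Dox minus no Dox, with SE) of the tested C region genes, apart from Trgc1 with 0 counts in all Dox libraries, and of the 11 CD3, pre-receptor, recombination and coreceptor genes (y axis). Open symbols, for Trdc and Trgc4, have an edgeR adjusted p of 0.05 or above, and Dntt lies at -8.89, a value fitted against Dox counts of 7, 0 and 0.

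Summed counts of T, B, myeloid, erythroid and natural killer cell markers differed between the groups. The 11 T cell genes together held 0.128% to 0.137% of counts without Dox and 0.00921% to 0.0105% with Dox. The 6 B cell genes, all of which rose, held 0.00241% to 0.00338% and 0.155% to 0.175%. The 6 myeloid genes, of which 4 rose and 1 fell, held 0.0147% to 0.0164% and 0.196% to 0.203%. The 5 erythroid genes, of which 2 rose and 2 fell, held 5.27% to 5.43% and 7.42% to 8.29%. The 7 natural killer cell genes, of which 2 of 3 tested rose, held 0.00028% to 0.00056% and 0.00181% to 0.00311%, with Klra8 at 0 in all libraries and Klre1 at 0 without Dox. Beside these calls, 23.6% of the 14110 tested genes rose and 22.1% fell, and these short lists were not tested against that. Of markers of gamma delta or innate-like T cells, Il17a and Il23r were at 0 in all libraries, and Cd163l1 was at 0 in those with Dox. These members alone do not show whether that list as a whole was higher or lower with Dox. The part of these cell types in the receptor results was not tested.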

How the data were processed

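RNA 3′ ends were measured in 6 libraries, 3 labelled no Dox and 3 labelled Dox, grouped by title. Libraries were made with a QuantSeq forward kit, which primes on the poly(A) tail, per the labels' protocols. The authors deposited unnormalized counts by Entrez gene ID, all whole numbers, with a column for each library. STAR, featureCounts and GRCm38 are named, without versions, in the submitters' processing notes. Annotation, strand setting, multi-mapping reads and molecular identifiers are not given in the sources used here. All columns were matched to a sample, leaving 0 over. As 3′ counts do not grow with transcript length, they were not scaled by it.

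Symbols, gene types and gene coordinates came from a RefSeq table (GRCm38.p6), which named 39374 of 40808 gene IDs. Sequences came from GENCODE M21 transcripts of GRCm38. The test across genes used edgeR 4.0.16 under R 4.3.3 (TMM factors, filterByExpr with minimum count 10 and minimum total 15, quasi-likelihood F-test, Benjamini-Hochberg over 14110 genes, threshold 0.05). CPM are TMM-normalized. DESeq2 1.42.0 and limma-voom (limma 3.58.1) were alternatives, beside other scalings and filters and leaving out each library. Measures per library were compared by a two-sided exact permutation test, and shares have 95% Wilson intervals. Leading shares were given for loci with at least 20 V counts in a library. Numbers of V segments were rarefied with the hypergeometric formula, with no random draw. The fitting script was tested on simulated data.

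Segments named in the text were all C genes, each V, D or J segment first of its kind in a library with 5 or more counts, the 10 V, D or J segments with most counts, and the 11 genes of the CD3 and recombination list. Trbv31, Traj12, Trav11, the Trb cluster sums, the ratios to single CD3 genes and the locus ratios with 1 library left out were added after values were seen. The members and lists were chosen with earlier results of these data known. With library totals of 5541486 to 8725767 counts, many single V, D and J segments lie near the floor of 3 counts. The summed level and calls of the list of gamma delta or innate-like T cell markers are not reported here.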

Additional observations from a re-analysis of the deposited data

How the results depend on the processing

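No paired analysis was possible because no replicate number occurs in both groups. The count of 12 members lower with Dox was 12 with RLE factors, library size only, limma-voom, and without haemoglobin and mitochondrial genes. It was 16 of 122 tested with no low-count filter, where 6544 of 27308 genes were called in either direction. It was 18 of 38 tested with DESeq2, which shared 11 of the 12. It was 3 of 5 tested when at least 10 counts were required in every library, a filter that leaves fewer members to test. Leaving out 1 library at a time gave 10 to 17. The count of members higher was 0 in each of these settings. Over all genes, the median log2 fold change was 0.07 as reported and 0.38 when only library size was scaled. The difference in receptor share (Dox minus no Dox, percentage points) was -0.112 as reported, -0.131 over totals without haemoglobin and mitochondrial genes, and -0.0992 for C genes only. The difference in number of V segments was -6.27 at equal depth and -25.7 without rarefaction. The difference in C region counts per CD3 count was -0.0310 as reported, -0.0692 to 0.0258 when 1 library was left out, and 0.247 without Cd247. The Tra leading V share without Dox was 20.5% as listed and 32.6% with near-equal copies counted once. With 1 library left out, the Trbc1 share differed by -47.6 to -41.0 percentage points and the Trb share of C counts by -29.2 to -18.0.

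Of the single genes, 4 turned in sign, none of them called in any setting. Traj27 was at 0.26 on the log2 scale with library size only, and at -0.96 to 0.52 with 1 library left out, being 0.28 without no Dox replicate 6 and 0.52 without Dox replicate 10. Traj49 was at 0.21 with library size only, 0.035 with at least 10 counts in every library and 0.10 with limma-voom, and at -0.45 to 0.35 with 1 library left out. Trav6-5 and Trav6n-5 were at -0.015 to 2.15 with 1 library left out. The cause was not tested. Of the named genes with a test, Trbv1, Trgv1 and Rag2 lost their call in some settings and Trgc4 gained one. Members called in a setting and not among the 12 numbered 7 with DESeq2, 4 with no filter, 5 without Dox replicate 11 or 12, and 3 without Dox replicate 10 or no Dox replicate 6. Fits by limma-voom moved low-count genes by over 1.5 times with no change of call. On the log2 scale Trgv2 was at -8.70, Trgv1 at -5.76, Trgc1 at -7.17, Trgc2 at -4.84, Trgc4 at -4.04, Trdc at -2.16, Trbv1 at -5.30, Trbd2 at -5.68, Trav6-6 at -6.45, Trav6d-6 at -6.43, Trav6-5 and Trav6n-5 at 0.42, Traj27 at -1.24, Ptcra at -7.46, Rag2 at -4.58 and Dntt at -9.90. For Trdc the adjusted p was 0.0893 to 0.408 across alternatives. Depth limits the V, D and J segments, and Trd V had under 20 counts in all libraries but 1.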
